A study of Homo sapiens with 2 samples.

Results

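The genes described are 10 ERK feedback genes, chosen by name as the usual feedback and readout genes of the pathway, out of 49627 genes that the deposited transcript files list. They are the phosphatase genes DUSP1, DUSP4, DUSP5 and DUSP6, the inhibitor genes SPRY2, SPRY4, SPRED1 and SPRED2, and the transcription factor genes ETV4 and ETV5. All 10 were found by their GENCODE symbol, and all 10 had a mean of at least 1 FPKM (fragments per kilobase, normalised to library size), the limit for entering a count. The RNA-seq data come from 2 libraries, both of MDA-MB-231, a line of human breast cancer of the triple-negative kind that is known for mutations of the RAS and RAF pathway. One library came from cells with stable knockdown of RBMS1, an RNA-binding protein gene, and the other from control cells. Per the study's methods, knockdown lines were made by lentiviral shRNA in the plasmid pLKO.1, the control carried the empty pLKO.1 vector, and both were kept under puromycin in L-15 medium with 10% FBS and no CO2. The labels do not say which shRNA was used for the sequenced cells. Each group is a single library, so no test was run and no spread between replicates is known.

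ERK, the last kinase of the RAS, RAF and MEK chain, switches on transcription of genes whose products then damp the same chain. DUSP proteins of this kind remove the phosphates that activate ERK and related kinases, whereas Sprouty and Spred proteins act further up, on receptor signalling, RAS and RAF. ETV4 and ETV5, factors of the PEA3 group of the ETS family, are usual transcriptional outputs of ERK, and the RNA levels of all these genes are widely used as a reading of ERK output. Several of the mRNAs are short-lived and carry AU-rich stretches in the 3′-UTR. RBMS proteins are known to bind AU-rich RNA, which is why those stretches are shown here before the values.

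In the longest annotated 3′-UTR of each gene (GENCODE release 29, GRCh38), a pair of words was searched on the transcript strand. These were TATTTAT, a core of the AU-rich element of unstable mRNAs, and ATATA, a word of the kind that RBMS proteins bind. The words may overlap themselves and each other. TATTTAT was in 7 of the 10 genes and in 36.8% of the 10044 genes with a 3′-UTR and at least 1 FPKM, and ATATA was in 9 of the 10 and in 63.9% of those genes. Among the 4862 genes with a 3′-UTR of 1000 to 4000 nt the shares were 43.1% and 78.1%, and of the 6 feedback genes in that range 4 and 5 held the words. The 3′-UTR of DUSP1 held 3 copies of TATTTAT and 6 of ATATA in 672 nt, the highest density of both words among the 10 genes (4.46 and 8.93 per kb). SPRED1 held 5 and 26 copies in 5585 nt, SPRY4 held 4 and 7 in 3782 nt, and DUSP6 held 0 and 2 in 2022 nt. In the 1118 nt of DUSP5 neither word occurred. The windows of 30 bases with the most bases in these words are shown for the gene with the densest words, for a pair of Sprouty and Spred genes with long AT repeats and for DUSP6, with capitals marking the words and every window read from the transcript strand.
DUSP1: ATATAcatatgagaATATAcctTATTTATt
SPRY4: aATATATATAaATATATAttgttaaATATA
SPRED1: gaagtagATATATATATATATATAtctact
DUSP6: tctggaactgactATATAattgtcttcaat
On GRCh38 they lie at chr5:172768385-172768414 (minus strand), chr5:142310442-142310471 (minus strand), chr15:38352235-38352264 (plus strand) and chr12:89348863-89348892 (minus strand). A match to a word is a description and not a binding site.

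RBMS1 itself had 3.76 FPKM in the knockdown library (interval 3.12 to 5.39) and 24.1 FPKM in the control library (21.7 to 27.7), which left 15.6% of the control value. The libraries carried the markers of the line, with VIM at 496 FPKM in the knockdown and 563 in the control library and CD44 at 154 and 204, while ESR1, PGR and CDH1 were under 0.11 FPKM in both. ERBB2, EPCAM and GATA3, listed with them as low or absent, lay between 1.56 and 7.50 FPKM. The markers of blood, stromal and endothelial cells, PTPRC, CD3E, COL1A1 and PECAM1, were all under 1 FPKM. Intervals here are built from those that Cufflinks gives each transcript for the uncertainty within a library. Lower and upper bounds were added over the transcripts of a gene or, for the exon depth described below, added at each base and averaged. Transcripts listed at 0 add to the upper bound, so intervals can overlap through them alone in genes with many annotated transcripts. The intervals do not cover differences between cultures. Read counts are not in the files used, and the number of reads behind a value is unknown. The median coverage per FPKM was 12.3 in the knockdown and 11.3 in the control library.

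A level is given in 2 ways. Summed FPKM adds the annotated transcripts of a gene and the transcripts assembled from the reads that share at least 1 intron with it. Exon depth is the mean, over the exon bases of the annotated transcript with the longest coding sequence, of the FPKM of every transcript covering the base on the same strand, so it also counts assembled transcripts of a single exon. Exon depth was added after the summed values had been seen to change with the kind of transcript that was assembled. A log2 ratio is knockdown over control with 1 FPKM added to both values, on either scale.

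By exon depth, 5 of the 10 genes were higher and 5 lower in the knockdown library, beside 53.5% and 46.5% of all genes, and by summed FPKM the numbers were 5 and 5 beside 52.8% and 47.2%. By exon depth, DUSP5, SPRY4, ETV5 and DUSP6 were higher in the knockdown library with intervals that did not overlap, ETV4 was lower with intervals that did not overlap, and the intervals of the other 5 genes overlapped. Intervals apart and higher were found in 16.3% of all 10066 genes on this scale, and apart and lower in 13.8%. By summed FPKM, DUSP6, DUSP1 and DUSP5 were higher with intervals apart and SPRY2 was lower, beside 13.3% and 11.5% of all 11186 genes. A 2-fold difference was reached by 1 of the 10 genes by summed FPKM, DUSP6, against 2.96% of all genes that were at least 2-fold higher and 2.8% lower, and by 0 of the 10 by exon depth, against 1.44% higher and 1.52% lower. The sign of the log2 ratio was the same on both scales in each of the 10 genes, whereas it differed in 9.12% of the 9779 genes measured on both. The ratio moved by over 0.5 between the scales in 1 of the 10, DUSP6, and in 3.99% of those genes. The median log2 ratio of the 10 genes was 0.08 by summed FPKM and -0.0047 by exon depth, beside 0.02 for all genes on either scale.

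**Figure D1:**
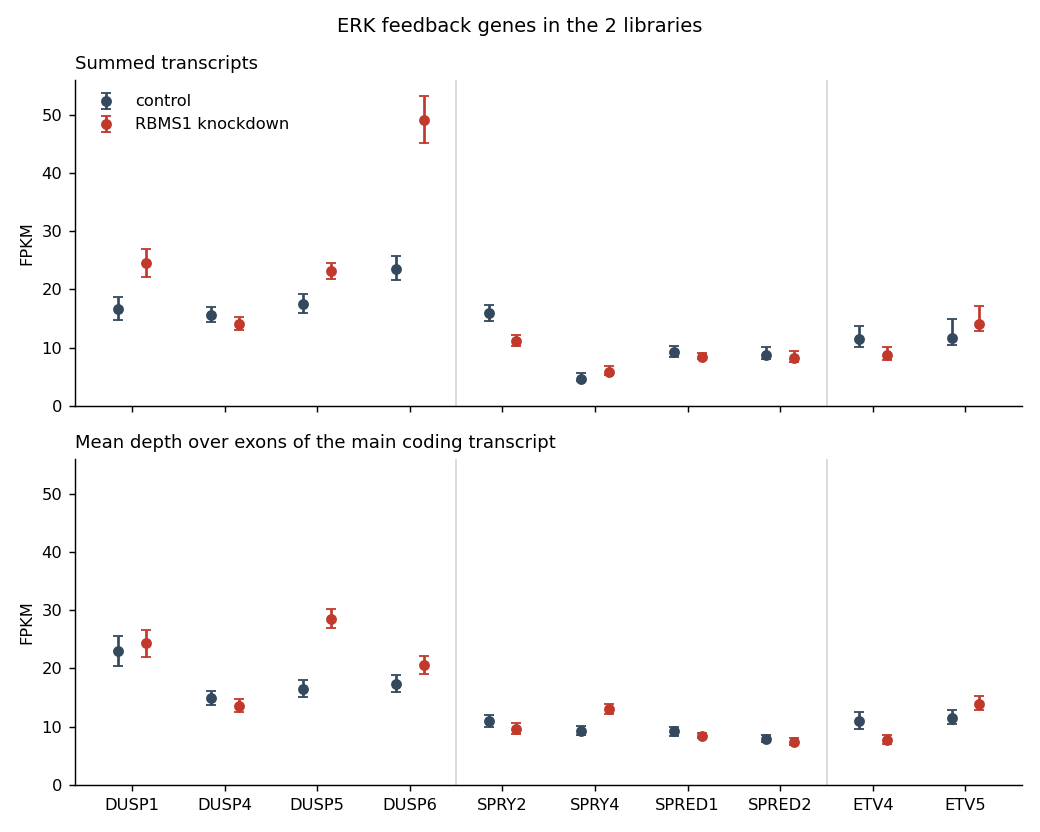
FPKM of the 10 genes in the control library (dark) and the RBMS1 knockdown library (red), as summed transcripts above and as exon depth below. Bars are intervals built from the bounds Cufflinks gives each transcript within the library. DUSP6 stands at 49.1 against 23.5 FPKM above and at 20.7 against 17.4 below, and DUSP5 is apart in both panels.

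Among the phosphatases, DUSP5, a nuclear phosphatase specific for ERK, differed in the same direction on every reading. Its exon depth was 28.5 FPKM in the knockdown library (26.9 to 30.2) and 16.5 FPKM in the control library (15.1 to 18.0). The knockdown library was thus 1.73 times as high, a log2 ratio of 0.75, and 97.8% of all genes had a lower ratio. The gene (chr10:110497838-110511544) has 4 exons. By summed FPKM it had 23.1 (21.7 to 24.5) and 17.5 (15.9 to 19.2), a log2 ratio of 0.38. The annotated coding transcript ENST00000369583 was listed at 23.1 FPKM in the knockdown and 13.4 FPKM in the control library.

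DUSP5 also had signal between its exons. In the knockdown library a single-exon transcript of 12714 nt, reaching from before the annotated start to within the last exon, was assembled at 12.1 FPKM. In the control library a single-exon transcript of 4173 nt covered part of the same stretch at 5.81 FPKM, and other parts of the introns of DUSP5 had depths of 7.50 and 4.08 FPKM. The mean depth over the introns was 12.1 FPKM against 4.14 FPKM, 2.92 times as high, and it amounted to 42.5% of the exon depth in the knockdown and 25.1% in the control library. With single-exon transcripts left out, the exon depth was 23.1 against 16.2 FPKM, 1.43 times as high. Transcripts covered all intron bases in the knockdown library and 68.4% of them in the control library, and the rest counted as 0, so the 2.92 rests partly on stretches with no assembled transcript. Where transcripts were present, the control depth averaged 6.06 FPKM and the ratio was 2.00. Depth was thus higher in the knockdown library over exons and over introns. The source of the intronic signal was not tested.

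DUSP6, a cytoplasmic phosphatase specific for ERK, had the highest summed FPKM of the 10 genes in either library. It was 49.1 (45.2 to 53.3) in the knockdown and 23.5 (21.6 to 25.7) in the control library, a log2 ratio of 1.03. By exon depth it was 20.7 (19.1 to 22.2) and 17.4 (15.9 to 18.8), 1.19 times as high, a log2 ratio of 0.24. Exon depth was read over ENST00000279488, whose first exon had a depth of 0 in the knockdown and 3.46 FPKM in the control library. Over its middle exon the depths were 49.1 and 36.0 FPKM, and over its last exon each library was higher in part. Over the coding sequence alone the depth was 31.9 and 24.6 FPKM, 1.30 times as high. The direction was the same for each of these gene values, and the size was not.

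The transcripts behind DUSP6 (chr12:89347232-89353271) differed between the libraries. The short annotated transcript ENST00000547291, of 1074 nt, was listed at 24.5 FPKM in the knockdown and at 0 in the control library. The long one, ENST00000279488, of 4400 nt, was listed at 0 in the knockdown and at 3.46 FPKM in the control library. The control library had in addition a spliced assembled transcript of 1966 nt at 20.04 FPKM and a single-exon one of 3052 nt at 12.5 FPKM, and the latter shares no intron and is outside the summed value. The knockdown library had 2 assembled transcripts at 12.7 and 11.9 FPKM, and both ran on past the annotated end of the gene, to position 89173095. With all overlapping transcripts added, the sums were 49.1 and 36.0 FPKM. A transcript listed at 0 beside such partners need not have been absent.

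DUSP1, the immediate early phosphatase that acts on JNK and p38 as well as ERK, was higher by summed FPKM and close to equal by exon depth. Summed FPKM was 24.5 (22.2 to 26.9) in the knockdown and 16.7 (14.7 to 18.7) in the control library, a log2 ratio of 0.53. Exon depth was 24.3 (22.0 to 26.7) and 23.0 (20.4 to 25.6), a log2 ratio of 0.08 with intervals that overlapped. The gene (chr5:172768090-172771195) has 1 annotated transcript, ENST00000239223, which was listed at 9.03 and 3.59 FPKM. A single-exon transcript of 2202 nt, over the 3′ part of the gene, was assembled at 9.41 FPKM in the control library, where it made 36.1% of all FPKM over the gene, and no such transcript was assembled in the knockdown library. Intronic depth was high in both libraries, 10.5 FPKM in the knockdown and 14.1 FPKM in the control library, that is 43.2% and 61.2% of the exon depth.

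DUSP4, a nuclear phosphatase of ERK and JNK, was close in both libraries. Summed FPKM was 14.1 (12.9 to 15.3) in the knockdown and 15.6 (14.3 to 16.9) in the control library, and exon depth was 13.6 and 15.0. The log2 ratios were -0.14 and -0.13, with overlapping intervals on both scales. Its gene lies at chr8:29333064-29350668. Of the 4 phosphatases, DUSP4 was the one with no single-exon transcript over an exon in either library and the one with the lowest intronic depth, 1.43 and 0.715 FPKM.

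**Figure D2:**
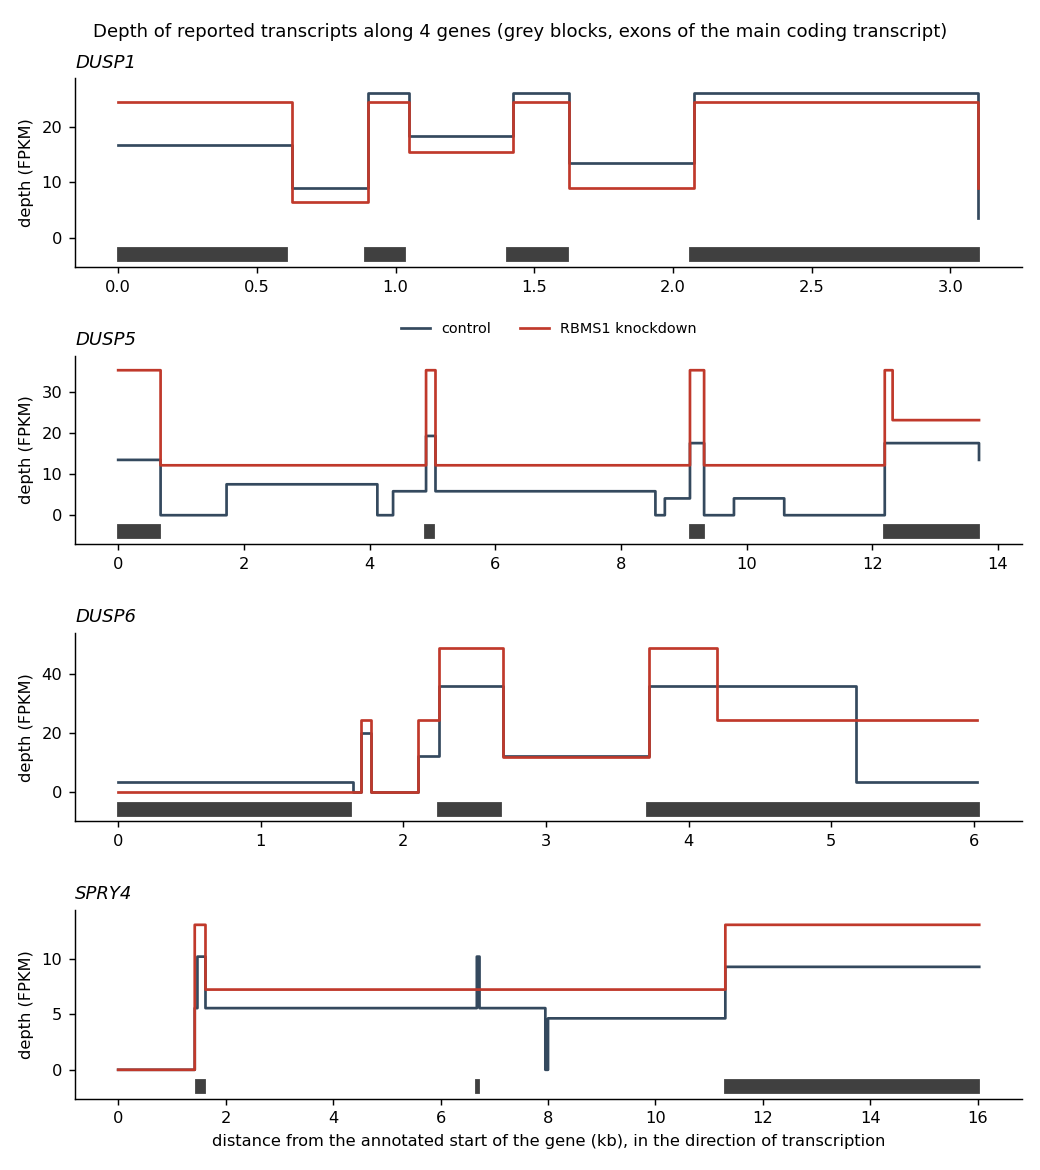
Depth along DUSP1, DUSP5, DUSP6 and SPRY4, in FPKM on the vertical axis, against the distance in kb from the annotated gene start, for control (dark) and RBMS1 knockdown (red). In DUSP5 and SPRY4 the red line lies above the dark one over the introns too (12.1 against 4.14 and 7.22 against 5.20 FPKM on average), and in DUSP1 and DUSP6 each line lies above the other over part of the gene.

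Of the Sprouty and Spred genes, SPRY4 was higher in the knockdown library by exon depth and the other 3 had overlapping intervals. The exon depth of SPRY4, whose product holds back receptor signalling to RAS and RAF, was 13.0 FPKM (12.1 to 13.9) in the knockdown and 9.31 FPKM (8.54 to 10.1) in the control library, 1.40 times as high, a log2 ratio of 0.44. Over the coding sequence the depths were 12.9 and 9.29 FPKM. The intronic depth was 7.22 and 5.20 FPKM, 1.39 times as high. Exons and introns thus differed by nearly the same factor, and intronic depth was 55.6% of exon depth in the knockdown and 55.9% in the control library. Single-exon transcripts covering exons and introns alike held 55.6% and 50.2% of the exon depth, so the near-equal factors are partly built in. With them left out, the exon depth was 5.77 against 4.64 FPKM, 1.24 times as high, a log2 ratio of 0.26.

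The summed value of SPRY4 (chr5:142310427-142326455) was lower and rested on other transcripts in each library. It was 5.83 FPKM (5.36 to 6.78) in the knockdown and 4.64 FPKM (4.20 to 5.58) in the control library, a log2 ratio of 0.28 with overlapping intervals. In the control library the upper bound of the only summed transcript above 0 was 5.07, and transcripts listed at 0 added the rest. The annotated transcript ENST00000344120 was listed at 0 in the knockdown and at 4.64 FPKM in the control library, and the knockdown value came from a 2-exon assembled transcript of 5240 nt. Single-exon transcripts held 55.3% and 68.7% of all FPKM over the gene. In the knockdown library there was 1 of them, of 14927 nt and 7.22 FPKM, while in the control library there were 2, of 8832 and 6516 nt, at 4.63 and 5.55 FPKM.

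SPRY2, the best known human Sprouty gene (chr13:80335976-80340951), was lower in the knockdown library by summed FPKM. It had 11.2 FPKM (10.3 to 12.1) in the knockdown and 15.9 FPKM (14.5 to 17.3) in the control library, a log2 ratio of -0.47. By exon depth it had 9.68 (8.81 to 10.6) and 10.9 (9.89 to 12.0), a log2 ratio of -0.16 with overlapping intervals. The knockdown library alone had a single-exon transcript over an exon of SPRY2, of 3950 nt, at 2.50 FPKM. Its transcript ENST00000377104 was listed at 11.2 and 14.5 FPKM, and ENST00000377102, with another first exon, at 0 and 1.38 FPKM.

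SPRED1 and SPRED2, which bring neurofibromin to RAS, were close in both libraries. SPRED1 (chr15:38252326-38357249) had 8.45 FPKM (7.97 to 9.14) in the knockdown and 9.25 FPKM (8.46 to 10.3) in the control library, a log2 ratio of -0.12. SPRED2 (chr2:65310851-65432637) had 8.13 FPKM (7.57 to 9.47) and 8.71 FPKM (8.11 to 10.2), a log2 ratio of -0.09, and in both libraries ENST00000356388, of 4097 nt, held all of it. Its exon depth, 7.31 and 7.83 FPKM, was read over ENST00000452315, of 1365 nt, which that transcript covers in part. The exon depths of SPRED1 and SPRED2 gave log2 ratios of -0.11 and -0.09. Intronic depth was under 0.4 FPKM in both genes, and neither had a single-exon transcript over an exon.

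**Figure D3:**
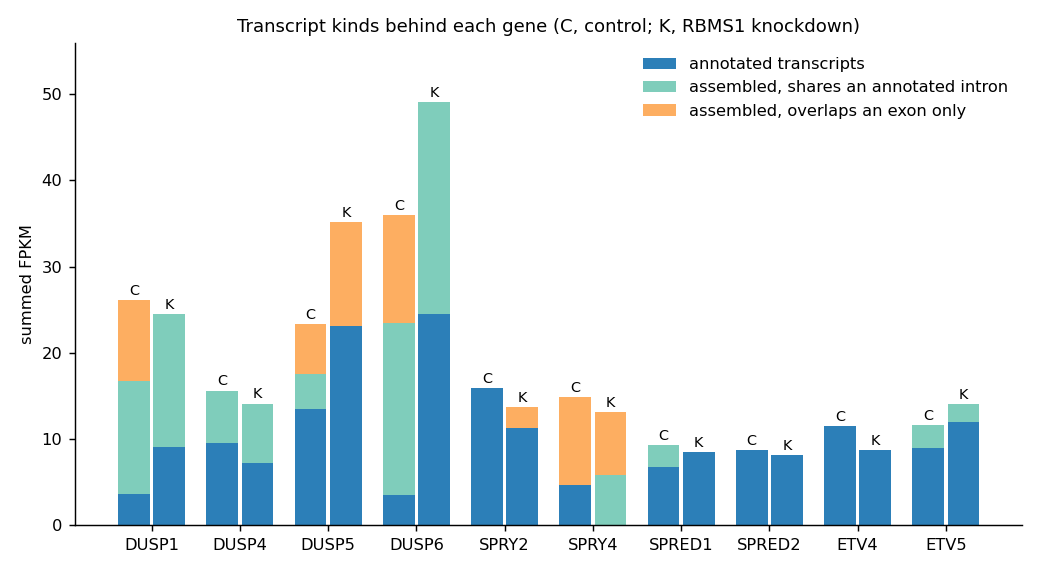
Summed FPKM over each gene in the control (C) and RBMS1 knockdown (K) library, divided into annotated transcripts, assembled transcripts that share an annotated intron, and assembled transcripts that only overlap an exon. The last kind, outside the summed value used here, is present in 1 library only for DUSP1, DUSP6 (control) and SPRY2 (knockdown), and in both for DUSP5 and SPRY4.

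The PEA3 factors ETV4 and ETV5 differed in opposite directions. ETV4 (chr17:43527844-43579620) had an exon depth of 7.76 FPKM (7.10 to 8.62) in the knockdown and 10.9 FPKM (9.55 to 12.5) in the control library, 71.1% of the control value, a log2 ratio of -0.44. By summed FPKM it had 8.65 (7.91 to 10.1) and 11.5 (10.1 to 13.6), a log2 ratio of -0.37, and these intervals just overlapped. The overlap rests on the upper bounds of transcripts listed at 0. The only knockdown transcript above 0, ENST00000393664, had an upper bound of 9.38 FPKM. The control value was made of ENST00000319349 at 5.93 FPKM and ENST00000393664 at 5.55 FPKM. In the knockdown library the former was listed at 0 and the latter, with 1 exon fewer, at 8.65 FPKM. ETV4 had the lowest exon depth ratio of the 10 genes, and 6.13% of all genes had a lower one. Its exon depth was read over ENST00000319349, the transcript listed at 0 in the knockdown library. Over the coding sequence alone the log2 ratio was -0.37.

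ETV5 (chr3:186046308-186110318) had an exon depth of 14.0 FPKM (12.9 to 15.3) in the knockdown and 11.5 FPKM (10.5 to 12.8) in the control library, 1.21 times as high, a log2 ratio of 0.26. Its summed values were 14.0 (12.9 to 17.2) and 11.6 (10.5 to 14.9), with overlapping intervals whose upper bounds include those of transcripts listed at 0. ENST00000306376 held most of it, at 11.9 and 8.88 FPKM. No transcript above 0 FPKM covered the introns of ETV5 in either library.

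By exon depth, DUSP1 was the highest of the 10 genes in the control library at 23.0 FPKM, and DUSP6, DUSP5 and DUSP4 followed at 17.4, 16.5 and 15.0 with intervals that overlapped between neighbours. In the knockdown library DUSP5 came first at 28.5 FPKM, with an interval above that of DUSP1, at 24.3. The order depended on the bases read. Over the coding sequence alone DUSP6 was the highest in the control library at 24.6 FPKM, with DUSP1 at 23.0. In the knockdown library DUSP5 and DUSP6 had coding depths of 32.2 and 31.9 FPKM. ETV5 and ETV4 had overlapping intervals in the control library (10.5 to 12.8 and 9.55 to 12.5) and stood apart in the knockdown library (12.9 to 15.3 and 7.10 to 8.62).

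A further deposited file, the table of the comparison between the libraries, lists 7236 transcripts with FPKM on a scale of their own, a median of 1.74 and 1.77 times the values above. All of its transcripts have a p-value under 0.05, so a transcript is in the table because its values differed, and the entries below are no separate evidence of a difference. It holds 6 transcripts of 6 of the 10 genes, beside a transcript of 32.4% of all 11186 genes. In it DUSP5 ENST00000369583 had 43.9 FPKM in the knockdown and 30.03 FPKM in the control library, a ratio of 1.46. DUSP6 ENST00000547291 had 46.4 and 29.7 FPKM, a ratio of 1.56, whereas the transcript file of the control library listed it at 0. SPRY4 ENST00000344120 had 21.4 and 15.1 FPKM, a ratio of 1.41, although the transcript file of the knockdown library listed it at 0. The 3 genes thus had ratios between 1.41 and 1.56 there, in the same direction as by exon depth. The other 3 entries were listed at 0 in one library, SPRED1 ENST00000561317 at 3.85 and 0, ETV4 ENST00000538265 at 0 and 6.10, and ETV5 ENST00000434744 at 0.355 and 0 FPKM. ETV4 and ETV5 had the direction of their exon depth, whereas SPRED1 had the opposite one (log2 ratio of exon depth -0.11).

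Other members of the same families did not share 1 direction. Of 6 further MAP kinase phosphatases, DUSP7 had 8.53 FPKM in the knockdown and 11.7 FPKM in the control library, a log2 ratio of -0.41 with intervals apart. DUSP10, which acts on JNK and p38, had 13.7 and 11.0 FPKM, a log2 ratio of 0.29 with intervals apart, and DUSP16, a JNK phosphatase, had 1.86 and 2.64 FPKM with overlapping intervals. DUSP2, DUSP8 and DUSP9 were under 0.4 FPKM in both libraries. SPRY1 had 5.39 FPKM in the knockdown and 1.90 FPKM in the control library, a log2 ratio of 1.14 by summed FPKM and 1.17 by exon depth (5.03 and 1.67). It was thus past the 2-fold limit on both scales, where none of the 10 genes was. SPRED3 had 2.08 and 1.52 FPKM with overlapping intervals, and SPRY3 was under 0.02 FPKM in both.

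ETV1, the remaining PEA3 gene, had 11.1 FPKM in the knockdown and 7.84 FPKM in the control library, log2 ratios of 0.45 and 0.47 on the summed and exon depth scales, and its intervals were apart by exon depth. With ETV5, 2 of the 3 PEA3 genes were therefore higher and ETV4 was lower. Among the 6 other ETS genes (ELK1, ELK3, ELK4, ETS1, ETS2 and ERF) ELK1, a factor that ERK phosphorylates directly, had the lowest ratio, with 2.27 and 6.98 FPKM, a log2 ratio of -1.29. By exon depth ELK1 had 11.2 and 16.7 FPKM, a log2 ratio of -0.53. ELK3, ELK4 and ERF had log2 ratios between -0.17 and 0.09 on both scales, ETS2 had -0.28, and ETS1 changed sign, from 0.15 by summed FPKM to -0.17 by exon depth.

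In the chain upstream of these genes no gene was past 2-fold with 1 FPKM added to both values. Without it the summed values of KSR1, given below, would be. Of 23 genes of the chain, with EGFR and its adaptors at the top, 14 were higher and 9 lower by summed FPKM, with a median log2 ratio of 0.04 beside 0.02 for all genes. The intervals were apart in 7 of the 23, with 4 higher and 3 lower beside the same shares of all genes (13.3% and 11.5%), and EGFR was among the latter at 26.1 and 33.03 FPKM. RASA2, a GTPase-activating protein of RAS, had the lowest ratio, -0.58 (2.45 and 4.16 FPKM). KSR1, a scaffold of the chain, had the highest by summed FPKM, 0.69 (2.14 and 0.943 FPKM), but 0.10 by exon depth, at a mean just under 1 FPKM, and there FRS2, an adaptor of FGF receptors, was the highest at 0.42 (5.88 and 4.15 FPKM).

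Of 11 other genes commonly read as ERK outputs, 4 were higher and 7 lower, none by 2-fold, with a median log2 ratio of -0.24 on either scale. The intervals were apart in 2 of the higher and 6 of the lower ones, beside 13.3% and 11.5% of all genes. PLAUR, the urokinase receptor, was the lowest at 20.03 FPKM in the knockdown and 37.6 FPKM in the control library, a log2 ratio of -0.88, and EPHA2, an ephrin receptor, was the highest at 68.3 and 55.3 FPKM, a log2 ratio of 0.30. The 10 feedback genes had a median between that of these outputs and that of the immediate early genes, whose 10 measured members had a median of 0.31 by summed FPKM and whose 11 had 0.34 by exon depth. By exon depth FOS, a partner in AP-1, was the highest of these with 30.7 and 16.2 FPKM, a log2 ratio of 0.88. JUN, the other partner, had 9.64 and 28.3 FPKM by summed FPKM, a log2 ratio of -1.46, and 24.9 and 28.3 by exon depth, a log2 ratio of -0.18. FOSB had 3.56 FPKM with the knockdown and was listed at 0 in the control library, while its exon depths were 7.92 and 5.39. CCN1, a secreted matrix protein gene, was listed at 0 in both libraries by summed FPKM but had exon depths of 246 and 308 FPKM, so the summed scale does not measure every gene of this kind.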

How the data were processed

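RNA-seq of 2 MDA-MB-231 libraries was used, 1 with RBMS1 knockdown and 1 control, grouped by the labels. The authors deposited for each library the transcripts written by Cufflinks, with FPKM, an interval and coverage, and a comparison table with FPKM, fold change, p-values and q-values, of which the FPKM columns were used here, and the p-values only to find the limit under which the table lists transcripts. Per the labels, the submitters' processing notes name Bowtie2 2.0.6, TopHat2 2.0.9, Cufflinks 2.1.1 and Cuffdiff 2.1.1. The genome build and strandedness are not given in the sources used here. Of the annotated transcripts, 98.1% started at their GENCODE release 29 (GRCh38) position, so gene names, positions and sequences were taken from it.

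Python 3.11.15 and numpy 2.4.6 were used. The summed FPKM of a gene covers its annotated transcripts and assembled transcripts sharing at least 1 intron on the same strand. Log2 ratios had a pseudocount of 1 FPKM, genes needed a mean of at least 1 FPKM, and a difference of 2-fold counted as past the limit. As a check of the code, all transcripts of 200 genes in a copy of the control library were multiplied by known folds. Summed FPKM returned each fold, as it must by construction, and exon depth returned 98.5% within 0.1 (log2). The set of assembled transcripts stayed the same in this check, so it does not cover differences in assembly between libraries. Alternatives were pseudocounts of 0.1 and 5 FPKM, other filters and scalings, and other sets of transcripts. The measures of exon depth, coding depth and exon depth from multi-exon transcripts were added after seeing the data. The 10 genes and all lists were chosen with earlier results of these data known. Named genes are the 10, RBMS1, the other MAP kinase phosphatases and PEA3 genes, and the lowest and highest of each list. Further genes (CD44 and other markers, CCN1 by exon depth and the remaining ETS factors) were named as checks or after their values were seen. One gene of the chain is not reported here.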

Additional observations from a re-analysis of the deposited data

How the results depend on the processing

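Over 13 ways of making the value, DUSP5, DUSP6 and ETV5 kept a positive log2 ratio, and DUSP4, SPRY2 and SPRED2 a negative one. Of 120 alternative values of the 10 genes, 94 stayed within the interval of the summed value and the rest moved outside it. DUSP1, whose intervals were apart as reported, turned negative, at -0.088, when assembled transcripts overlapping an exon were added. SPRED1 (0.30) and ETV4 (0.56) turned positive with the dominant annotated transcript only, SPRED1 also with annotated transcripts only, and SPRY4 turned negative in both (-2.50) and with overlapping transcripts added (-0.17). The largest ratio of DUSP6, 4.67, came from the dominant annotated transcript, where a listing at 0 makes it depend on the pseudocount, as it does for the -2.50 of SPRY4. The number of the 10 genes past 2-fold, 1 as reported, was 0 with a pseudocount of 5 FPKM, with overlapping transcripts added and with exon depth, coding depth or multi-exon depth, and 3 with annotated transcripts or the dominant transcript only. Their median, 0.08, was -0.10 with overlapping transcripts added and -0.0047 by exon depth, and 0.34 with the dominant transcript only. The number of all genes past 2-fold, 644, was 257 with a pseudocount of 5 FPKM, 278 with a mean of at least 5 FPKM, 1060 with annotated transcripts only, 977 with the dominant transcript, 298 by exon depth, 362 by coding depth, 316 by multi-exon depth and 1333 after rescaling to TPM. The cause was not tested.

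No paired analysis was possible because each group has 1 library. Depth in reads is unknown, intervals cover a single library, and differences between cultures cannot be told apart from the knockdown.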

Other observations

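With single-exon transcripts left out of the exon depth, DUSP1 had 24.3 FPKM in the knockdown and 16.5 FPKM in the control library, 1.47 times as high, and DUSP6 had 20.65 and 12.03 FPKM, 1.72 times as high. In these 2 genes the single-exon transcripts held 28.1% and 30.7% of the exon depth in the control library and 0% in the knockdown library. Over all genes, 53179 assembled transcripts in the knockdown library had a single exon, and 57015 did in the control. In SPRY2 they held 23.9% with the knockdown and 0% without it, and leaving them out gave SPRY2 7.37 and 10.9 FPKM, a ratio of 0.674 and a log2 ratio of -0.51. Since such a transcript was assembled in 1 library only, leaving it out moves these ratios by construction, and the remaining multi-exon transcripts still include some that retain introns.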
